A study of Mus musculus with 4 samples.

Results

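The replication-dependent histone genes were taken as every probe whose gene name in the scanner files starts with Hist1, Hist2, Hist3 or Hist4, the 4 clusters in which these genes lie. The rule found 54 probes for 49 genes, of 55681 probes and 36163 gene names on the array. By class, 6 genes coded for H1, 14 for H2A, 12 for H2B, 8 for H3 and 9 for H4. By cluster, 36 genes belonged to Hist1 (chromosome 13), 9 to Hist2 (chromosome 3), 3 to Hist3 (chromosome 11) and 1 to Hist4 (chromosome 6). They were set beside 19 probes for 11 histone variant genes, whose names start with H2af or H3f3. All 54 histone probes had a usable spot on every array, 53 rose clearly above the local background (the flag of the scanner software) on 1 array or more and 47 did so on all 4. The exception was a Hist4h4 probe that stayed at the background.

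RNA came from E14Tg2A, an established mouse embryonic stem (ES) cell line of 129/Ola origin, and was labelled with Cy3 for single-colour arrays. ES cells were untreated and kept in serum with the cytokine LIF (day 0). Epiblast-like aggregates (ELA) were the same cells after 2 days as floating aggregates in a minimal medium with N2 and B27. In the other two groups, 5-azacytidine (AZA, an inhibitor of DNA methyltransferases, 50 nM) or 5-carboxy-8-hydroxyquinoline (CHQ, an inhibitor of lysine demethylases, 100 µM) was present while the aggregates formed. Each group was a single array (1 per group) for which the RNA of 3 experiments had been mixed, and no test, p-value or replicate spread could be had, and a single cell line stands for the ES cell. A probe was called higher or lower by size: a log2 difference of at least 1, a mean log2 value of at least 7.5 over the arrays compared, and a signal flagged as well above background on either array. Repeat spots of the same probe within an array gave a spread of 0.208 log2 units for a difference, which covers spot error only.

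The array order bears on each comparison below. ES and ELA were on slide 1, AZA and CHQ on slide 2. ELA against ES and CHQ against AZA therefore lie within a slide, whereas drug and slide cannot be told apart when a treated array is set against ELA. Of all gene spots, 60.6% (ES), 55.1% (ELA), 69.1% (AZA) and 69.2% (CHQ) were flagged as well above background. The local background had a median intensity of 59, 77, 14 and 13 in the same order. As to the cells themselves, the summed level of 7 probes for 6 ground state genes was 17.08, 14.04, 17.61 and 16.19 in the order ES, ELA, AZA, CHQ (log2 scale). Of these 7 probes, 6 were below ES in ELA and 1 was above. Against ELA, 6 were above and 1 below with each treatment. The summed level of 6 probes for 4 primed epiblast genes was 18.38, 19.55, 17.98 and 18.52. ELA was thus lowest in the first list and highest in the second. The primitive endoderm list was at 9.75, 9.94, 10.21 and 11.37, trophoblast at 17.02, 16.55, 14.92 and 14.62, neural at 13.75, 14.47, 12.52 and 12.67, and mesenchymal at 13.40, 13.93, 12.9996 and 11.83. Of 7 primitive endoderm probes, 4, 2, 7 and 6 were well above background in the same order, so that sum is near background in ES and ELA. Of 6 trophoblast probes, 5, 3, 4 and 5 were. The part of other cell types in the values below was not tested.

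Replication-dependent histone genes supply the H1, H2A, H2B, H3 and H4 proteins that package newly copied DNA, and they are expressed in S phase. Unlike nearly all other mRNAs of animals, their messages end in a conserved stem-loop in place of a poly(A) tail. The stem-loop is bound by SLBP, and the U7 particle directs cleavage a few bases after it. A minority of these genes can also give polyadenylated transcripts. Most histone variants of the H2af and H3f3 type are made outside S phase as well, from ordinary polyadenylated mRNAs. H2afx differs in that it also gives a message that ends in the stem-loop. The labelling kit used here primes with oligo-dT, so how well a histone message is copied depends on A-rich stretches or a tail, and the effect of this on the levels was not tested.

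The letters of the stem-loop, GGCNCTTNTNAGNGCC (16 bases, N for any base), were searched in the deposited sequence of every probe, which is in the sense of the mRNA. They occurred in 6 of the 55681 probes (0.0108%), all of them histone members, and in none of the variant probes. The 30 bases of each such probe that hold the element are shown because the position of the element in the probe differed between members that fell and the member that rose. Capitals mark the stem-loop, and coordinates are those of the whole probe in the array files (build mm9).
Hist1h3a (chr13:23853756-23853815, minus strand): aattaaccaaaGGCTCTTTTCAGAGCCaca
Hist1h3g (chr13:23627719-23627778, plus strand): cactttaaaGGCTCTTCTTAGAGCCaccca
Hist1h3i (chr13:21874784-21874843, minus strand): ataacaaaaGGCTCTTTTCAGAGCCccctc
Hist1h4m (chr13:21903960-21904019, plus strand): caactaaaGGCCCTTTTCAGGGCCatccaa
Hist2h2bb (chr3:96074056-96074115, plus strand): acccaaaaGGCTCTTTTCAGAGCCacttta
Hist2h2aa1 (chr3:96049949-96050008, plus strand): taaaaaGGCTCTTTTCAGAGCCacccactg
In the first 5 probes the element stood at the 3′ end, with 3 to 6 bases after it. In the Hist2h2aa1 probe it began at base 7 and 38 bases followed it. Of the other probes, that of Hist1h2ab ended in the first 11 bases of the element, and that of Hist1h2ae began with its last 12 bases and ran on for 48.

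Histone transcripts were at similar levels in ES and ELA. Of 45 histone probes that passed the filters on signal, 3 were higher in ELA and 0 were lower. Over all probes tested in this comparison, 9.70% were called, 4.08% higher and 5.62% lower. The median difference was 0.22 log2 units over the histone probes, 0.11 over the variants and -0.04 over all probes. The class medians lay between 0.13 (H1) and 0.36 (H3), and 45 of 50 histone probes well above background were above 0. Scaled to the spike-in controls, the histone median was -0.32, that of all probes -0.56 and each class median below 0, so the sign of the histone median depends on the scale, and its place above the median of all probes does not.

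The 3 probes that rose from ES to ELA came from the Hist3 cluster and the linker histone H1.4. The probe of Hist3h2a, an H2A gene, had log2 values of 8.73 (ES), 10.54 (ELA), 10.28 (AZA) and 10.996 (CHQ). The probe of Hist3h2ba, an H2B gene of the same cluster, had 9.28, 11.11, 9.70 and 10.53 in that order. Both were lowest in ES, with a rise of 3.52-fold for Hist3h2a and 3.57-fold for Hist3h2ba in ELA. With spike-in scaling Hist3h2ba was at 9.74, 11.01, 9.55 and 10.28, lowest with AZA. The last was the probe of Hist1h1e, which encodes H1.4, at 14.17 in ES and 15.26 in ELA (2.12-fold higher). This call was lost with spike-in scaling, where the difference was 0.43 log2 units (1.35-fold). The Hist1h2ac probe (H2A) was not well above background in ES (6.46) and was at 7.76 in ELA. In these quantile-normalised values it was at least 2.47-fold higher, but its mean was below the level needed for a call. With spike-in scaling it was at 6.997 in ES and 7.82 in ELA, a smaller difference. The pseudogene of the Hist3 cluster, Hist3h2bb-ps, was well above background only with AZA (7.54).

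Both treated arrays had lower histone signal than ELA. With AZA, 28 of 45 histone probes that passed the filters were lower and 2 were higher, against 12.2% lower and 14.1% higher over all probes tested (26.3% called in all). With CHQ, 28 of 47 were lower and 3 higher, against 12.7% and 14.2% of all probes (27.0% called). The median histone difference was -1.28 with AZA and -1.62 with CHQ, whereas it was -0.11 and -0.17 over the variant probes and -0.02 and -0.03 over all probes. The 2 comparisons share the ELA array. With the arrays scaled to their 75th percentile in place of quantile normalisation, 39 of 49 histone probes were lower with each treatment, against 17.2% (AZA) and 20.4% (CHQ) of all probes. With scaling to the spike-in controls, 37 of 46 were lower with AZA and 37 of 45 with CHQ, against 15.9% and 23.1% of all probes. Slide and drug cannot be told apart here, and in bulk RNA fewer cells that express a histone gene and less RNA per cell cannot be told apart either.

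The fall also held against ES. For 25 of 46 histone probes, both treated arrays were lower than both untreated arrays by at least 1 log2 unit, and for 2 they were higher by as much. Over all probes the shares were 3.94% lower and 5.18% higher, and among 16 variant probes 0 were lower and 1 was higher. The share differed by class in the order H4 (10 of 11), H1 (3 of 5), H3 and H2B (4 of 8 each) and H2A (4 of 14). This order depends on the scale. With 75th percentile scaling, where 6.81% of all probes met the rule, the counts were 10 of 12 (H4), 4 of 5 (H1), 11 of 14 (H2A), 5 of 8 (H3) and 4 of 8 (H2B). With spike-in scaling, where 10.6% of all probes met it, they were 10 of 11, 4 of 5, 11 of 14, 7 of 8 and 4 of 8 in the same order of classes. Among the variant probes 3 of 16 were lower under each of these scalings.

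**Figure D1:**
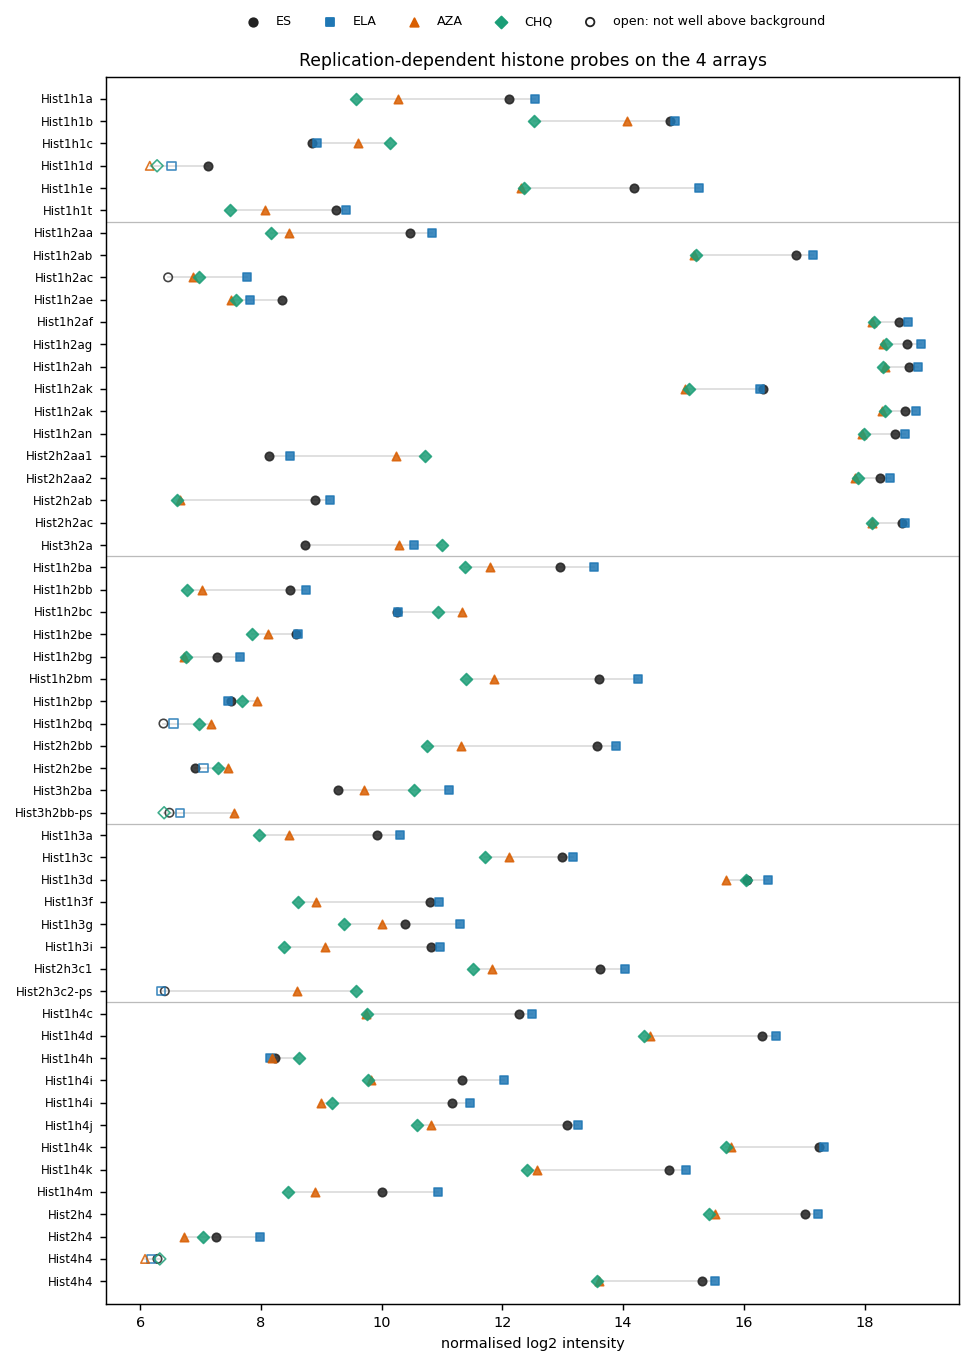
Normalised log2 intensity (x axis) of the 54 histone probes, grouped by class (H1, H2A, H2B, H3 and H4 from top to bottom), on the ES, ELA, AZA and CHQ arrays, with open symbols where the probe was not well above background. In most rows the ES and ELA symbols lie together on the right and the AZA and CHQ symbols together on the left. Hist1h1c, Hist2h2aa1, Hist1h2bc and Hist2h3c2-ps are examples of the opposite order.

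**Figure D2:**
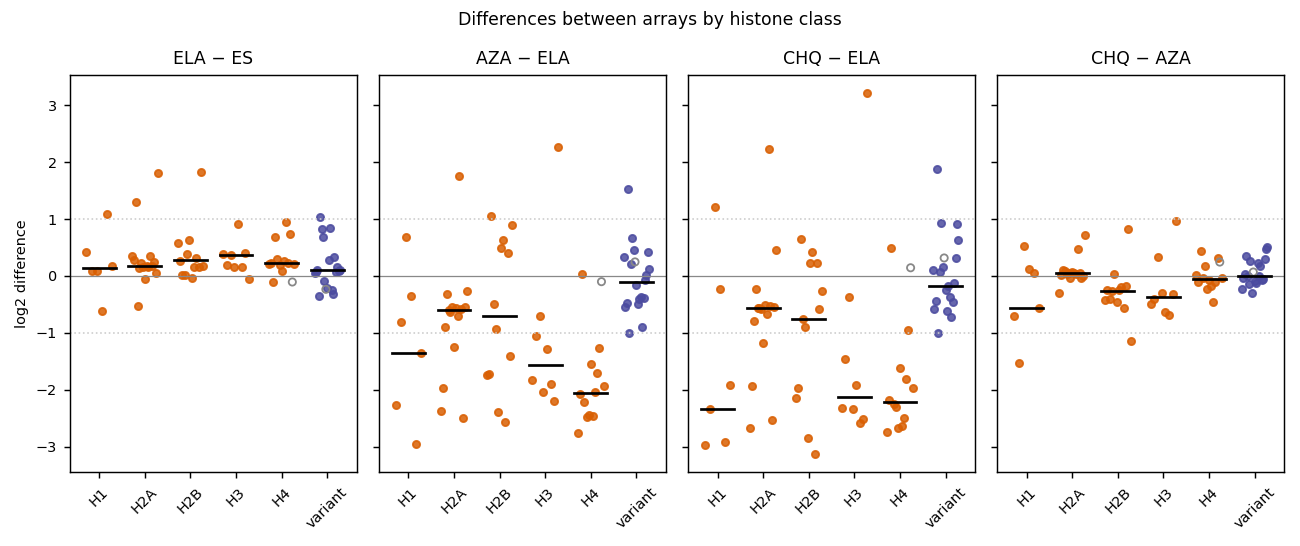
Log2 difference (y axis) of each histone probe by class, and of each variant probe, in the 4 comparisons, with a black bar for the median of probes well above background on at least 1 array compared, dotted lines at 1 and -1, and open circles for probes that were not well above background on any array. The H4 median was -2.06 with AZA and -2.21 with CHQ, and every class median was within 0.6 of 0 for ELA against ES and for CHQ against AZA.

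In H4, a core histone nearly all of whose gene copies encode the same protein, all 13 probes but 3 were called lower with AZA and with CHQ. The class median was -2.06 and -2.21. Hist1h4c had log2 values of 12.27 (ES), 12.49 (ELA), 9.73 (AZA) and 9.75 (CHQ), and was 6.75-fold and 6.68-fold lower than ELA. The untreated and treated arrays formed separate levels for this gene. Where a gene had 2 H4 probes well above background, both pointed the same way. The Hist1h4i probes differed by -2.21 and -2.48 with AZA and by -2.24 and -2.30 with CHQ. The Hist1h4k probes fell by 1.55 and 2.45 with AZA and by 1.62 and 2.63 with CHQ, the smaller fall in the probe that ends in the stop codon. The dim second probe of Hist2h4 was at 7.26, 7.99, 6.72 and 7.04. It was below the level needed for a call with AZA, and its difference with CHQ, -0.95, missed the threshold. It was called lower with both under 75th percentile scaling (-2.26 and -1.504). The brighter probe fell by 1.71 and 1.81. The probe of Hist1h4h differed from the rest of the class, with 8.24, 8.14, 8.18 and 8.63, highest with CHQ and with no difference past the threshold. With spike-in scaling it was at 8.71, 8.14, 7.997 and 8.36, highest in ES.

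H3 showed the same order. The class median was -1.56 with AZA and -2.12 with CHQ. In this class, 6 of 7 probes that passed the filters were lower with AZA and 6 of 8 with CHQ. The probe of Hist2h3c1 was at 13.62 (ES), 14.03 (ELA), 11.84 (AZA) and 11.51 (CHQ), the largest fall of the class with AZA (4.56-fold). Hist1h3i had the largest fall with CHQ (6.02-fold), with 10.81, 10.97, 9.07 and 8.38. Both were higher on each untreated array than on each treated array. The probe of Hist1h3d, which the files list for 4 genes, was at 16.05, 16.41, 15.70 and 16.04, where no difference passed the threshold. It was called lower with both treatments under 75th percentile scaling (-1.13 and -1.02), and with spike-in scaling too (-1.11 and -1.10). Hist2h3c2-ps, named as a pseudogene in the array design and H3c15 in RefSeq, went the other way. It was not well above background in ES or ELA (6.41 and 6.35) and was at 8.60 with AZA and 9.57 with CHQ. In these quantile-normalised values that is at least 4.79-fold and at least 9.33-fold higher than ELA. The size depends on the scale, since with AZA it was 3.49-fold under spike-in scaling and 27.7-fold under 75th percentile scaling. With spike-in scaling the probe was at 6.64 in ELA and 9.34 with CHQ. It was called higher with CHQ, and it fell short of the level needed for a call with AZA. Both calls depend on the processing, since the probe was too dim for a call with CHQ in the authors' table and was called higher with AZA under 75th percentile and spike-in scaling.

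Linker histones of the H1 class, which bind the DNA between nucleosomes, differed among themselves. Hist1h1e (H1.4) fell from 15.26 in ELA to 12.30 with AZA and 12.35 with CHQ (7.77-fold and 7.51-fold). Hist1h1a (H1.1) was at 12.11 (ES), 12.53 (ELA), 10.27 (AZA) and 9.57 (CHQ), a fall of 4.81-fold and 7.81-fold. The testis H1 gene, Hist1h1t, was at 9.24, 9.41, 8.06 and 7.49. Hist1h1b (H1.5) was at 14.77, 14.86, 14.06 and 12.53, which passed the rule with CHQ (5.06-fold lower). The difference with AZA was -0.80, and it passed the rule with 75th percentile scaling (-1.05) and spike-in scaling (-1.07). Hist1h1c (H1.2) had its order reversed, with 8.84, 8.92, 9.61 and 10.14, and was 2.32-fold higher with CHQ. Hist1h1d was well above background only in ES (7.13).

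In the H2B class 5 of 8 probes that passed the filters were lower with AZA and 4 of 8 with CHQ. Hist2h2bb, whose probe carries the stem-loop at its 3′ end, was at 13.56 (ES), 13.88 (ELA), 11.31 (AZA) and 10.75 (CHQ). It fell by 8.77-fold with CHQ. Hist1h2bm was at 13.61, 14.24, 11.85 and 11.39, and Hist1h2ba, the testis H2B gene, at 12.95, 13.52, 11.79 and 11.37. These 3 genes were higher on both untreated arrays than on both treated arrays. Hist1h2bc was the exception, at 10.26, 10.27, 11.33 and 10.93, which was 2.08-fold higher with AZA and short of the threshold with CHQ (0.66 log2 units). Its difference with AZA was 0.996 with spike-in scaling. Hist3h2ba fell with AZA (2.66-fold) and not past the threshold with CHQ. The dim Hist1h2bp probe differed from ELA by 0.48 log2 units with AZA and by 0.23 with CHQ. Those of Hist1h2bq and Hist2h2be were not well above background in ELA. In the quantile-normalised values they were at least 1.54-fold and at least 1.32-fold higher with AZA. With CHQ they were at least 1.35-fold and at least 1.17-fold higher, and both were too dim for a call. The directions depend on the scale. With spike-in scaling Hist1h2bq was at 6.81 (ELA), 6.91 (AZA) and 6.57 (CHQ). In the same order Hist2h2be was at 7.23, 7.20 and 6.91, and Hist1h2bp at 7.56, 7.73 and 7.36.

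The H2A class had a median difference of -0.60 with AZA and -0.57 with CHQ, with 4 of 14 probes lower and 1 higher in each comparison. These values rest on the scaling of the arrays. With each treatment, 12 of 15 H2A probes were lower under 75th percentile scaling and 11 of 14 under spike-in scaling, and 1 was higher in each case. With 75th percentile scaling the H2A median was -1.46 and -1.59, beyond that of H2B (-1.03 and -0.93), and with spike-in scaling it was -1.44 and -1.67. Hist2h2ab was at 8.90 (ES), 9.15 (ELA), 6.66 (AZA) and 6.61 (CHQ) (5.62-fold and 5.79-fold lower than ELA). The size of this fall depends on the processing, since it was 18.2-fold and 20.9-fold with 75th percentile scaling and 12.2-fold and 10.8-fold in the authors' table, where the probe was too dim for a call. Hist1h2aa, the testis H2A gene, was at 10.48, 10.83, 8.47 and 8.17, and Hist1h2ab at 16.86, 17.14, 15.18 and 15.20. All 3 were higher on both untreated arrays. By contrast, 7 H2A probes read the end of the coding sequence, that of Hist1h2ah and those that share a run of 29 bases or more with it. The files list 5 of them for more than 1 gene, so that their values cannot be assigned to a single gene. Their log2 values were between 17.85 and 18.93 on the 4 arrays, where the brightest probe of an array reached 19.07 to 19.11 and no spot was saturated. Their differences from ELA were between -0.71 and -0.55 with AZA and between -0.67 and -0.52 with CHQ, all below 0 and none past the threshold. With 75th percentile scaling they were between -1.49 and -1.34 (AZA) and between -1.62 and -1.52 (CHQ), and with spike-in scaling between -1.55 and -1.33 and between -1.78 and -1.56. All 7 thus passed the threshold under both of these scalings and under none of the quantile-normalised versions, the authors' table among them.

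The H2A sequences are shown because the end probes share bases and were close in value, whereas a probe of the same stretch with other codons, that of Hist2h2ab, fell further under each scaling. Capitals mark the longest run shared with the Hist1h2ah probe, which is given whole. The Hist2h2ab probe covers the same end of the protein with other codons and shares a run of only 5 bases. The Hist1h2ak start probe begins at the first codon.
Hist1h2ah (chr13:22127035-22127094, minus strand, coding end): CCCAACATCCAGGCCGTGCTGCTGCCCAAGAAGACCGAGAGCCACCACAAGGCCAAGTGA
Hist2h2ac (chr3:96024378-96024437, minus strand, coding end): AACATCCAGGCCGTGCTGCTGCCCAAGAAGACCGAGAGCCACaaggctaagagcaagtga
Hist2h2aa2 (chr3:96049837-96049896, plus strand, coding end): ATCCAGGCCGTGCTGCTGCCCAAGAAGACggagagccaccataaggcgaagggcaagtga
H2afj (chr6:136757181-136757240, plus strand, coding end): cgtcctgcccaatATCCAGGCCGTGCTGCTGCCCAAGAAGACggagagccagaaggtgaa
Hist2h2ab (chr3:96024171-96024230, plus strand, coding end): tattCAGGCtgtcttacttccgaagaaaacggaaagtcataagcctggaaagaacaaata
Hist1h2ak (chr13:21845637-21845696, minus strand, coding start): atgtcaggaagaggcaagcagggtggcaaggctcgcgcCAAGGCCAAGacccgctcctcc

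Probes of the same H2A gene or gene pair gave different values. The start probe of Hist1h2ak was at 16.32 (ES), 16.26 (ELA), 15.02 (AZA) and 15.08 (CHQ), a called fall of 1.24 and 1.18 log2 units. Its end probe, which the files list for 3 genes, was at 18.67, 18.85, 18.29 and 18.33, a difference of -0.56 and -0.52. With 75th percentile scaling the start probe was at -1.65 and -1.81 and the end probe at -1.41 and -1.52, so that both passed the threshold. With differences centred on probes of like base composition, the start probe was at -0.76 and -0.68 and was not called. Hist2h2aa1 and Hist2h2aa2 are near-identical copies. Their probes lie on the same strand, and only 52 bases separate them, with the Hist2h2aa2 probe at the stop codon and the Hist2h2aa1 probe across and beyond the stem-loop. The Hist2h2aa2 probe was at 18.25, 18.43, 17.85 and 17.90. The Hist2h2aa1 probe was at 8.13, 8.48, 10.24 and 10.71, which was 3.38-fold higher with AZA and 4.69-fold higher with CHQ. The 2 probes thus differed from ELA in opposite directions, and they did so under each scaling. The Hist2h2aa2 probe is one of the end probes that share bases with probes of other genes. Its value therefore cannot be assigned to this locus alone. The downstream probe passed the threshold throughout.

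**Figure D3:**
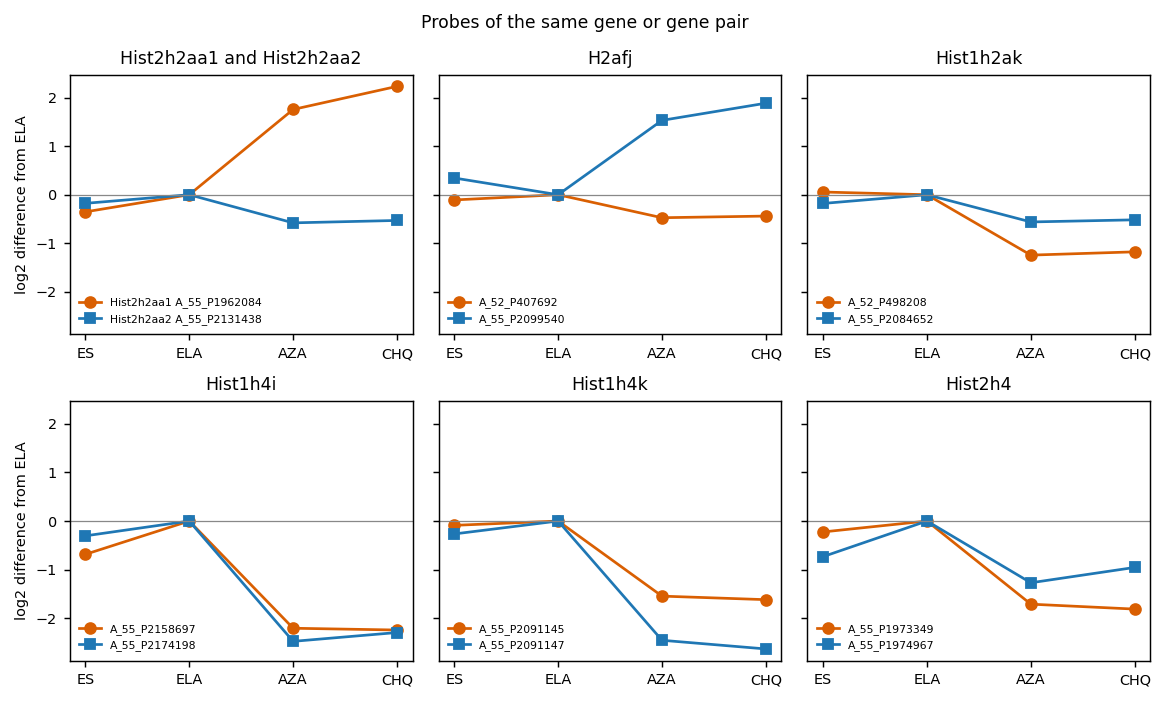
Log2 difference from the ELA array (y axis) on the 4 arrays (x axis) for 2 probes of the same gene, or of Hist2h2aa1 and Hist2h2aa2, with 1 line per probe. The paired probes of Hist1h4i, Hist1h4k, Hist2h4 and Hist1h2ak were below ELA on both treated arrays, whereas the probes of Hist2h2aa1 and Hist2h2aa2, and those of H2afj, lay on opposite sides of ELA.

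All 5 probes with the stem-loop at the 3′ end were called lower in both comparisons. Their differences were -1.29 (Hist1h3g) to -2.57 (Hist2h2bb) for AZA and -1.92 (Hist1h3g) to -3.13 (Hist2h2bb) for CHQ. Among all histone probes that passed the filters, 28 of 45 were called lower with AZA and 28 of 47 with CHQ. The shares of all probes were 12.2% and 12.7%. A fall was thus common among the members and not particular to these 5. The Hist1h2ab probe, which ends inside the element, also fell (-1.96 and -1.94). Hist2h2aa1, with 38 bases after the element, rose. The Hist1h2ae probe, with 48 bases after the part of the element it holds, was at 8.35, 7.82, 7.498 and 7.59 and passed no threshold. These 2 probes hold at least 10 bases of the element and run far beyond it, and they do not share a direction. Probes that lie wholly beyond the element were not searched for, so this is no full count of downstream probes. The polyadenylation signals AATAAA or ATTAAA (sense strand) were present in 4 histone probes, those of Hist1h2ag, Hist1h2be, Hist3h2ba and a Hist1h4i probe, and in 13.7% of all probes.

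Between the treated arrays, which share a slide, the histone probes differed little. Of 44 that passed the filters, 1 was lower with CHQ and 0 were higher, against 4.63% lower and 5.01% higher over all probes (9.65% called). The probe that was lower was that of Hist1h1b, at 14.06 with AZA and 12.53 with CHQ (2.90-fold). The histone median was -0.06 and that of all probes -0.03. The class medians were -0.57 (H1), -0.36 (H3), -0.26 (H2B), -0.06 (H4) and 0.04 (H2A). While 6 of 8 H3 probes and 10 of 12 H2B probes were below 0, 12 of 15 H2A probes were above it. The sign of the H2A median depends on the scale, as it was -0.16 with 75th percentile scaling and -0.23 with spike-in scaling.

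The variant genes showed no common shift in the quantile-normalised values. Of 16 variant probes that passed the filters, 1 was higher in ELA than in ES, 1 was higher and 1 lower with each treatment, and 0 differed between CHQ and AZA. With 75th percentile scaling 4 were lower with each treatment, and with spike-in scaling 4 with AZA and 5 with CHQ, against 17.2% and 20.4% of all probes in the first case and 15.9% and 23.1% in the second. H2afz (H2A.Z) was at 18.36 (ES), 18.11 (ELA), 17.74 (AZA) and 17.73 (CHQ), and its second probe at 16.99, 16.67, 15.77 and 15.95. Neither was called here, and both were called lower with each treatment under 75th percentile scaling (-1.01 and -1.38 with AZA, -1.21 and -1.43 with CHQ) and under spike-in scaling. H2afv, the other H2A.Z gene, had one probe at 9.08, 10.11, 9.106 and 9.101, a rise in ELA and a fall with each treatment that lay at the threshold (2.01-fold). With spike-in scaling the rise was 0.48 log2 units and was not called, and the fall with AZA was -0.95 and not called once centred on probes of like base composition. The brighter H2afv probe was at 15.23, 16.07, 16.28 and 16.13 and did not fall in these quantile-normalised values, where the probes of a gene thus disagreed too. With spike-in scaling it was at 15.99, 16.16, 15.98 and 15.51, below ELA with each treatment, so this disagreement depends on the scale.

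H2afx, which encodes the H2A.X protein that is phosphorylated at DNA breaks, was at 14.82, 15.51, 16.17 and 16.44. It was lowest in ES and highest with CHQ, with no difference past the threshold in any of the 4 comparisons. With spike-in scaling it was at 15.58, 15.57, 15.86 and 15.83, so this order depends on the scale. H2afj was at 18.47, 18.57, 18.10 and 18.13 by its coding end probe, which shares 38 bases with that of Hist2h2aa2. By its downstream probe it was at 10.07, 9.72, 11.26 and 11.61, which was 2.89-fold higher with AZA and 3.69-fold higher with CHQ. So the coding end probe of this gene lay below ELA with the H2A end probes, and its downstream probe was called higher. With 75th percentile scaling the coding end probe was called lower too, at -1.24 and -1.40.

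H2afy and H2afy2 encode the macroH2A proteins, large H2A variants found on silent chromatin, and RefSeq lists H2afy3 as a transcribed pseudogene. H2afy was at 11.68, 11.60, 12.06 and 11.77 and, by a second probe, at 10.64, 10.43, 10.27 and 10.19, while its remaining probe was not well above background. H2afy2 was at 12.20, 12.48, 11.99 and 11.86, and H2afy3 at 10.54, 11.39, 10.99 and 11.22. No difference of these 3 genes passed the threshold. The replacement histone H3.3 was read by probes of its pair of genes. H3f3a was at 15.65, 15.98, 15.59 and 15.52 and, by a second probe, at 15.48, 15.54, 15.47 and 15.41. H3f3b was at 15.92, 16.03, 16.16 and 16.66, at 13.67, 13.76, 14.18 and 14.66, and at 8.99, 9.15, 9.17 and 9.46 by its 3 probes. In these quantile-normalised values all 3 H3f3b probes were highest with CHQ and none was called. With spike-in scaling all 3 were highest in ES, at 16.72, 14.35 and 9.45, against 16.03, 14.16 and 9.23 with CHQ. An H3f3a probe was called lower with CHQ under spike-in scaling (-1.09). H2afb2-ps was at 7.23, 7.30, 6.76 and 6.73, and H2afb1 was well above background only with AZA (6.64).

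Base composition differed between the members and most probes, and differences from ELA moved with it. The median difference of all probes with AZA was -0.05 for probes with 21 to 24 G or C bases of 60 and -0.45 for those with 37 or more. The histone probes had 14 to 42 such bases. In each range of composition that held histone probes, their median was below that of all probes. It was -0.32 against -0.05 at 21 to 24 bases, -1.78 against -0.14 at 25 to 28, -1.27 against -0.22 at 29 to 32, -2.00 against -0.29 at 33 to 36 and -1.24 against -0.45 above that. With the median of probes of like composition subtracted, the histone median was -1.06 with AZA and -1.13 with CHQ. That of all probes was 0.13 and 0.14. Here the histone median and that of all probes take in probes well above background on either array compared. At this step 26 histone probes were lower with AZA and 27 with CHQ, in place of 28 with each. The share of all probes lower at this step is not given here.

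**Figure D4:**
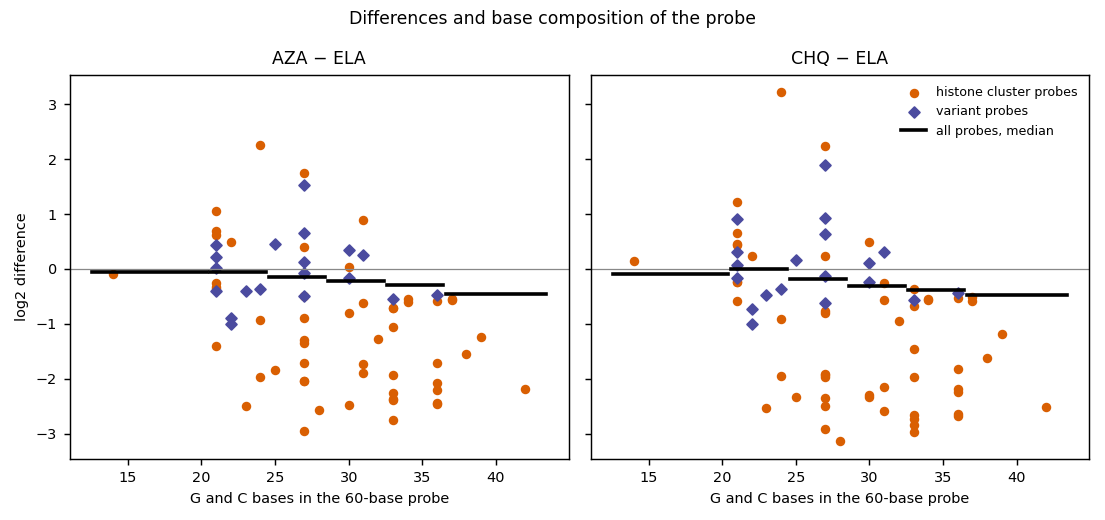
Log2 difference from ELA (y axis) with AZA and with CHQ against the number of G and C bases in the 60-base probe (x axis), for the histone probes (circles) and the variant probes (diamonds), with black bars for the median of all probes in each range of composition. The black bars reach -0.45 (AZA) and -0.48 (CHQ) at the right, and most circles lie below them.

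Few of the genes that process histone messages were called. Of 24 probes of the stem-loop binding and histone pre-mRNA processing list that passed the filters, 0 were higher and 1 was lower with AZA, and 0 were higher and 3 lower with CHQ, against 12.2% of all probes lower with AZA and 12.7% with CHQ. The share lower with CHQ is thus near that of all probes, of which 14.1% and 14.2% were higher. With 75th percentile scaling 1 and 4 of 24 were lower, against 17.2% and 20.4% of all probes. With spike-in scaling 1 and 5 were, against 15.9% and 23.1%. The median difference of the quantile-normalised values was -0.13 with AZA and -0.14 with CHQ. Single probes ranged from -1.43 to 0.91 and from -1.45 to 0.89. Slbp, which encodes the stem-loop binding protein, was at 12.44 (ES), 12.16 (ELA), 11.56 (AZA) and 11.45 (CHQ), a difference of -0.60 and -0.71 that missed the threshold. Its second probe, at -0.74 and -0.68, missed it too. Srrt, whose ARS2 protein joins the cap-binding complex to RNA processing, was at 12.99, 12.81, 11.37 and 11.35 and was called in both comparisons. With CHQ, a probe of Ncbp2 (cap-binding, -1.11) and that of Lsm11 (a U7 particle subunit, -1.01) were called as well. The second Ncbp2 probe, at -0.72, was not. The probe of Npat, the activator of histone transcription, was not well above background.

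Histone chaperones, which carry new histones to DNA, had a median of -0.41 with AZA and -0.53 with CHQ. Of 37 probes, 0 were higher and 7 lower with AZA, and 1 was higher and 8 lower with CHQ. Over all probes 12.2% and 12.7% were lower and 14.1% and 14.2% higher. A Nasp probe fell by 1.44 and 1.86 and an Nap1l4 probe by 1.60 and 1.49, while the other probes of these genes differed by less. Chaf1b, a subunit of the replication-coupled assembly factor CAF-1, fell by 1.39 with CHQ by 1 of its 2 probes, and by both under 75th percentile and spike-in scaling. With 75th percentile scaling 11 of 37 chaperone probes were lower with AZA and 14 with CHQ, against 17.2% and 20.4% of all probes. With spike-in scaling 11 of 37 were lower with AZA and 15 with CHQ, against 15.9% and 23.1% of all probes.

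Genes of S phase, the phase in which histone messages are made, were set beside the histones. Of 33 probes, 0 were higher and 5 lower with AZA (median 0.03), and 0 were higher and 7 lower with CHQ (median -0.16). The shares over all probes were again 12.2% and 12.7% lower and 14.1% and 14.2% higher. In the quantile-normalised values, the helicase genes Mcm2 to Mcm7 differed from ELA by -0.22 to 0.39 log2 units on the treated arrays. Pcna, the sliding clamp of the polymerase, differed by -0.27 and -0.22 in these values. The Mcm differences under the other scalings are not given here. Of the list, 6 and 8 of 33 probes were lower with 75th percentile scaling, against 17.2% and 20.4% of all probes. The medians were -0.25 and -0.56. With spike-in scaling 6 and 13 of 33 were lower, against 15.9% and 23.1% of all probes. The medians were -0.29 and -0.63, and Pcna was called lower with CHQ (-1.03). Ccne1, encoding cyclin E1, was the largest fall, with one probe at 12.63, 11.71, 9.58 and 9.16. Among the other linker and replacement histones, H1fx was at 9.05, 10.51, 9.22 and 9.33, higher in ELA than on the other arrays. Its rise from ES was not called with spike-in scaling (0.90). Cenpa, the histone H3 variant of the centromere, was at 14.30, 14.54, 13.998 and 13.34 and fell with CHQ.

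Promoters were read from RefSeq (assembly GRCm38.p6) as the 250 bases before the start site. A promoter was found for 42 of the 49 histone genes and for 8 of the 11 variant genes. The octamer ATTTGCAT, bound by Oct-type factors and known from H2B promoters, was searched on both strands. It was present in 6 of 9 H2B and 7 of 14 H2A promoters, in none of the 19 of H1, H3 and H4, and in 1.81% of all promoters. CCAAT (both strands) was present in all 29 promoters of H1, H2A and H2B, in 4 of 6 of H3 and in 2 of 7 of H4, against 37.5% of all. TATAAA (sense strand) was found in 20 of 42, against 8.94% of all. Promoters of 2 H2B genes that fell with both treatments are shown with the octamer, and TATAAA where present, in capitals.
Hist1h2bb (chr13:23746624-23746733, plus strand): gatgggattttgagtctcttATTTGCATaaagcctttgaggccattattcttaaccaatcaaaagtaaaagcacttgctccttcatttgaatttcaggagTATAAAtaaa
Hist2h2bb (chr3:96269632-96269679, plus strand): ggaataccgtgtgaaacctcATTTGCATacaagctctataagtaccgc
The octamer began 90 bases before the start site in Hist1h2bb and 48 bases before it in Hist2h2bb. Hist1h2bb was at 8.49 (ES), 8.74 (ELA), 7.02 (AZA) and 6.77 (CHQ), and was too dim for a call in the authors' table. A match of letters describes the sequence and does not show that a factor was bound.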

How the data were processed

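Total RNA from 4 groups was measured on Agilent 60-base arrays, 1 array per group. Per the file headers, the authors read the scans with Feature Extraction 10.7.3.1 (the submitters' processing notes give 9.1). The deposited scanner files hold spot intensity with its local background, not normalised between arrays, whereas the deposited table of values is on the log2 scale, after background correction and quantile normalisation in limma by the authors. That table correlated at 0.991 to 0.992 per array with the values used here (medians 6.21 to 6.24 and 7.19 to 7.22). The main values came from the mean intensity, corrected with normexp (offset 50) and quantile-normalised over the 4 arrays in limma 3.58.1 (R 4.3.3). Control spots and outlier-flagged spots were left out, and the spots of a probe were averaged. Levels are log2 values of a probe and were compared only between arrays. No p-values were computed. The call rule was tested on simulated data, and no value from that check is given here. The accessions of 52 of the 54 histone probes matched the RefSeq table. The files list 14 histone probes for more than 1 gene. Coordinates of probes are those of the array files, and those of promoters are from RefSeq.

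The members and gene lists were chosen with earlier results of these data known. By rule, all histone and variant genes could be named. Values per array were given for the largest called rise and fall of each class, for genes whose probes disagreed and for variant probes above background, and of the other lists for at most 3 members per comparison. Further members were named as examples after their values were seen. Of the listed genes, 6 names were not found on the array. Alternatives were other background corrections, scalings, filters and ways of joining probes.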

Additional observations from a re-analysis of the deposited data

How the results depend on the processing

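No paired analysis was possible because each group was 1 array and the labels give no replicate numbers that groups share. The slide could not be fitted as a block, since no comparison has arrays of both groups on both slides. The histone counts with AZA and CHQ stayed within 1.5 times the reported 30 and 31 under every alternative run (27 to 43 and 27 to 42). Counts of smaller groups moved more. With 75th percentile scaling 12 of 15 H2A probes were lower with each treatment, and with spike-in scaling 11 of 14, in place of 4 of 14. The variant probes lower with each treatment went from 1 of 16 to 4, or to 5 with CHQ under spike-in scaling. The counts over all histone probes that moved more were small. For ELA against ES, 5 histone probes were called by the authors' value table and by scaling to the 75th percentile, in place of 3, and for CHQ against AZA 2 were called by these alternatives and with no filter on dim probes, in place of 1. The histone median with AZA was -1.72 with 75th percentile scaling, -1.51 with spike-in scaling, -1.03 as the mean over the probes of a gene and -1.06 with GC-centred differences, an alternative chosen after seeing the data. With CHQ it was -2.06 with 75th percentile scaling and with spike-in scaling, -1.31 with no filter on dim probes, -1.87 for probes well above background on both arrays, -1.38 as the mean over the probes of a gene and -1.13 with GC-centred differences. For CHQ against AZA it was -0.28 with spike-in scaling. For ELA against ES, spike-in scaling turned the sign of the histone median (-0.32), of every class median (H1 -0.41, H2A -0.31, H2B -0.23, H3 -0.32, H4 -0.44) and of the variant median (-0.38). Against ELA, the H2A median moved further than any other class median with 75th percentile scaling (-1.46 with AZA, -1.59 with CHQ) and with spike-in scaling (-1.44 and -1.67), and the cause was not tested. Spike-in scaling rests on 7 control probes and put the median of all probes at -0.56 for ELA against ES, -0.36 for AZA, -0.50 for CHQ and -0.16 for CHQ against AZA. Relative to that, the histone median was 0.24, -1.15, -1.56 and -0.12. Of 70 called differences of single histone or variant probes, 67 remained at least 1 log2 unit with spike-in scaling, 66 with GC-centred differences and 70 in each of the other 4 alternatives run on single probes, and 0 changed sign. With 1 array per group, array and slide limit what the differences can show.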
